A study of Homo sapiens with 9 samples.

Results

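Voltage-gated and potassium ion channel genes were described here in U251 cells, a human glioblastoma line, after knockdown of PTBP1, an RNA-binding protein that represses splicing. The genes were all entries of the expression table whose symbol starts with KCN or CACN or names a voltage-gated sodium channel subunit (SCN, a number and A or B), with antisense entries to be left out, of which there were 0. This gave 137 genes of 22295 entries. Total RNA from 9 libraries in 3 groups of 3 was sequenced: sh-Luci-3d, cells infected for 3 days with the control lentivirus sh-Luci; sh-Ptbp1-3d, cells infected for 3 days with a lentivirus carrying a hairpin against PTBP1; and sh-Ptbp1-7d, cells infected with the latter for 7 days. According to the study's methods, infected cells were moved into a neuronal induction medium with N2, B27, forskolin (an activator of adenylyl cyclase) and dorsomorphin (an inhibitor of BMP receptor kinases and AMPK) after infection. Both sh-Ptbp1 groups came from the same line and hairpin label, and the labels do not say that replicates were separate cultures, so the p-values measure the spread between these libraries, which may be technical. No sh-Luci library of day 7 was analysed here, so time after infection, time in medium and knockdown cannot be told apart in a comparison with sh-Ptbp1-7d.

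Voltage-gated channels open when the membrane depolarizes. Sodium (Nav) channels carry the upstroke of the action potential, calcium (Cav) channels couple depolarization to calcium entry, and voltage-gated potassium (Kv) channels repolarize the cell. Inward rectifier (Kir) and tandem-pore (K2P, leak) potassium channels pass current near rest and set the resting potential, while auxiliary subunits change the trafficking and gating of the pore-forming ones. Glioblastoma cells are known for the calcium-activated potassium channels KCNMA1 (BK) and KCNN4 (KCa3.1), whereas many Nav, Kv and Cav pore genes are characteristic of neurons and muscle.

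PTBP1 was lower in both knockdown groups than in the control group. It was 111, 112 and 124 FPKM (fragments scaled by transcript length and library size, so levels are per length) in sh-Luci-3d, 66.2, 64.4 and 61.0 in sh-Ptbp1-3d and 49.7, 50.7 and 51.0 in sh-Ptbp1-7d. Of the markers of the labelled cells, VIM lay between 4088 and 4488 FPKM in the day 3 libraries and between 1094 and 1249 FPKM at day 7, CD44 between 153 and 199 and between 60.4 and 64.6 FPKM, and SOX9 was above 32 FPKM in every library, while ALDH1L1 and AQP4 were below 0.06 FPKM in all 9 and GFAP reached at most 1.15 FPKM. The library sh-Ptbp1-3d replicate 3 stood apart from the rest: STMN2, a growth-associated gene of neurons, was at 11.5 FPKM and NEUROD6, a factor of forebrain excitatory neurons, at 6.03 FPKM there, and both were listed at 0 in the other 8 libraries. The counts of channel genes called in comparisons that use this library are therefore given with and without it, as are some values it moves. Calls of cell type markers are given with it only.

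Few of the channel genes were expressed at appreciable levels. A mean of at least 0.1 FPKM over the 9 libraries, the level required for testing, was reached by 44 of the 137 genes (32.1%), against 69.8% of all entries. Of the other 93, 18 were listed at 0 in every library and 75 had at least 1 value above 0, the highest being 0.727 FPKM. The genes just inside the limit were KCNV2, KCNJ11 and KCNRG with means of 0.110, 0.114 and 0.119 FPKM, and those just outside were CACNA2D3, KCNE2 and CACNG7 with means of 0.0945, 0.0914 and 0.0848 FPKM. The untested genes included 13 of 17 Kv1 to Kv4 pore subunits, 9 of 10 Cav alpha1 subunits, 6 of 10 Nav alpha subunits and 12 of 16 Kir channels. Since fewer cells of a type and less RNA per cell cannot be told apart in bulk samples, a level stands for the whole culture.

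By mean level over all 9 libraries, the leading genes were KCNN4 (the pore subunit of KCa3.1), CACNB3 (a cytoplasmic Cav beta subunit), KCNE4 (a single-pass subunit that modulates Kv channels) and KCNQ5 (a Kv7, M-current subunit), the 4 with a mean of at least 10 FPKM. The order differed between the days: KCNE4 had a group mean of 5.49 FPKM in sh-Luci-3d and 5.64 in sh-Ptbp1-3d, under those of KCNMA1 (10.5 and 10.9), KCNIP3 and KCNAB2, and 29.7 FPKM in sh-Ptbp1-7d, the highest of all channel genes there. These 4 were followed by KCNMA1, KCNIP3, KCNAB2, CACNG4, KCNJ2, KCNK2, KCNJ8 and CACNB1. The number of channel genes with a group mean of at least 1 FPKM was 19 in sh-Luci-3d, 19 in sh-Ptbp1-3d and 24 in sh-Ptbp1-7d. Summed over all 137 genes, the level was 107, 104 and 116 FPKM in sh-Luci-3d and 122, 118 and 113 in sh-Ptbp1-3d. The 3 sh-Ptbp1-7d libraries were at 184, 177 and 170 FPKM, above every library of day 3.

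Whether the knockdown changed channel genes at day 3 was addressed by sh-Ptbp1-3d against sh-Luci-3d, with a threshold of a fold change above 2 and an adjusted p below 0.05 (limma on log2(FPKM + 0.1), Benjamini-Hochberg adjustment over all 15551 genes tested). None of the 44 tested channel genes passed (0 of 44), while 0.0129% of all genes did, and 5 of the 44 had an unadjusted p below 0.05. CACNB3, KCNAB2, KCNK2 and KCNRG were among them, named after their values were seen. The share of all genes at that level was not computed. This count and the later ones of unadjusted p are therefore not read as an excess. The lowest adjusted p by limma was 0.619, that of KCNRG, a cytoplasmic regulator of Kv channel assembly. Its level was 0.0642, 0 and 0.0370 FPKM in sh-Luci-3d, 0.235, 0.195 and 0.0808 in sh-Ptbp1-3d and 0.126, 0.171 and 0.162 in sh-Ptbp1-7d. All of these values are low, and the gene lies near the limit for testing. The fitted log2 fold changes of the 44 genes ran from -0.52 (KCNJ11) to 0.996 (KCNRG), 27 above 0 and 17 below, with a median of 0.06 against 0.01 over all genes tested. No overlap between the libraries of both groups was seen for 4 of the 44 genes (9.09%), against 10.8% of all genes. The 0.0129% of all genes that passed the thresholds rests on 2 genes. Without sh-Luci-3d replicate 3, 0.379% of all genes (59 of 15582) passed, with 0 channel genes among them. Without sh-Ptbp1-3d replicate 3, again 0 of 44 passed, as did 0% of the 15511 genes then tested, and 3 of the 44 had an unadjusted p below 0.05. Under the main settings PTBP1 itself missed the fold threshold (log2 fold change -0.85, adjusted p by limma = 0.00314). A channel gene with a change of that size would not be called either.

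At day 7 against day 3 of the knockdown, 12 of the 44 tested channel genes passed a fold change above 2 and an adjusted p below 0.01. The 10 that rose were the leak channels KCNK2 and KCNK15, the inward rectifiers KCNJ2 and KCNJ8, the Kv7 subunit KCNQ5, the potassium channel subunit KCNE4, the sodium channel genes SCN2A and SCN3A, and the calcium channel genes CACNB2 and CACNG4. KCNK10, another leak channel, and the sodium channel SCN9A fell. The 10 higher genes are 22.7% of those tested, against 8.31% of all genes, and the 2 lower are 4.55%, against 5.9% of all genes. Of the 10, SCN2A reached the limit for testing only through its day 7 level. With a pseudocount of 1, KCNK2, KCNE4, KCNJ2 and CACNG4 alone passed, and 8.07% of all genes did. Median-ratio scaling of the libraries changed the split to 8 higher and 3 lower (without KCNK15 and KCNQ5, with KCNMA1), and quantile normalization to 7 higher and 4 lower (also without SCN2A and with CACNA2D1). Of all genes, 13.9% and 13.6% passed in either direction under these scalings. The median log2 fold change of the 44 genes was 0.39, and that of all genes was 0.09. TPM scaling moved the median of all genes by 0.10 and quantile normalization by -0.10, so the fold changes below stand relative to a centre that depends on the scaling by about this much. No overlap between the libraries was seen for 26 of the 44 channel genes (59.1%) and for 62.3% of all genes. Without sh-Ptbp1-3d replicate 3, 11 channel genes passed: 8 rose (18.2%, against 7.69% of all genes) and 3 fell (6.82%, against 5.92% of all genes). In that fit KCNQ5 and SCN2A no longer passed and KCNMA1 did.

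Markers of cell types moved between these groups too. Of the 6 astroglial markers tested, 1 was called higher and 2 lower at day 7 against sh-Ptbp1-3d, and the summed level of all 8, mostly VIM, was 4447 to 4751 FPKM in sh-Ptbp1-3d and 1236 to 1372 FPKM in sh-Ptbp1-7d. Of the neuronal markers, 0 of 13 pan-neuronal ones were called higher and 4 lower, and 2 of 9 forebrain ones higher and 0 lower. The part of these shifts in the channel values was not tested.

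**Figure D1:**
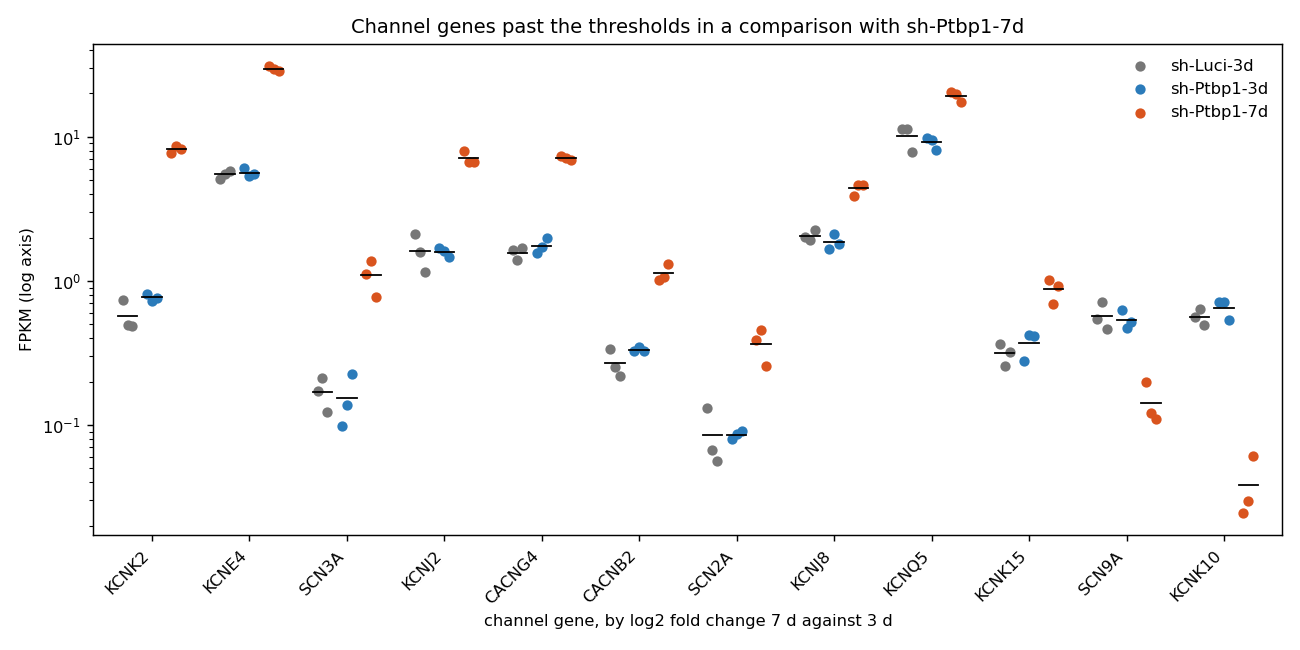
FPKM on a log axis for 12 of the 13 channel genes that passed the thresholds in a comparison with sh-Ptbp1-7d; each point is a library, grey for sh-Luci-3d, blue for sh-Ptbp1-3d and orange for sh-Ptbp1-7d, and black bars are group means. KCNK2, at 0.484 to 0.812 FPKM in the day 3 libraries and 7.76 to 8.60 FPKM at day 7, lies furthest above its day 3 points, and KCNK10 and SCN9A are the 2 genes whose day 7 points lie below all day 3 points.

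**Figure D2:**
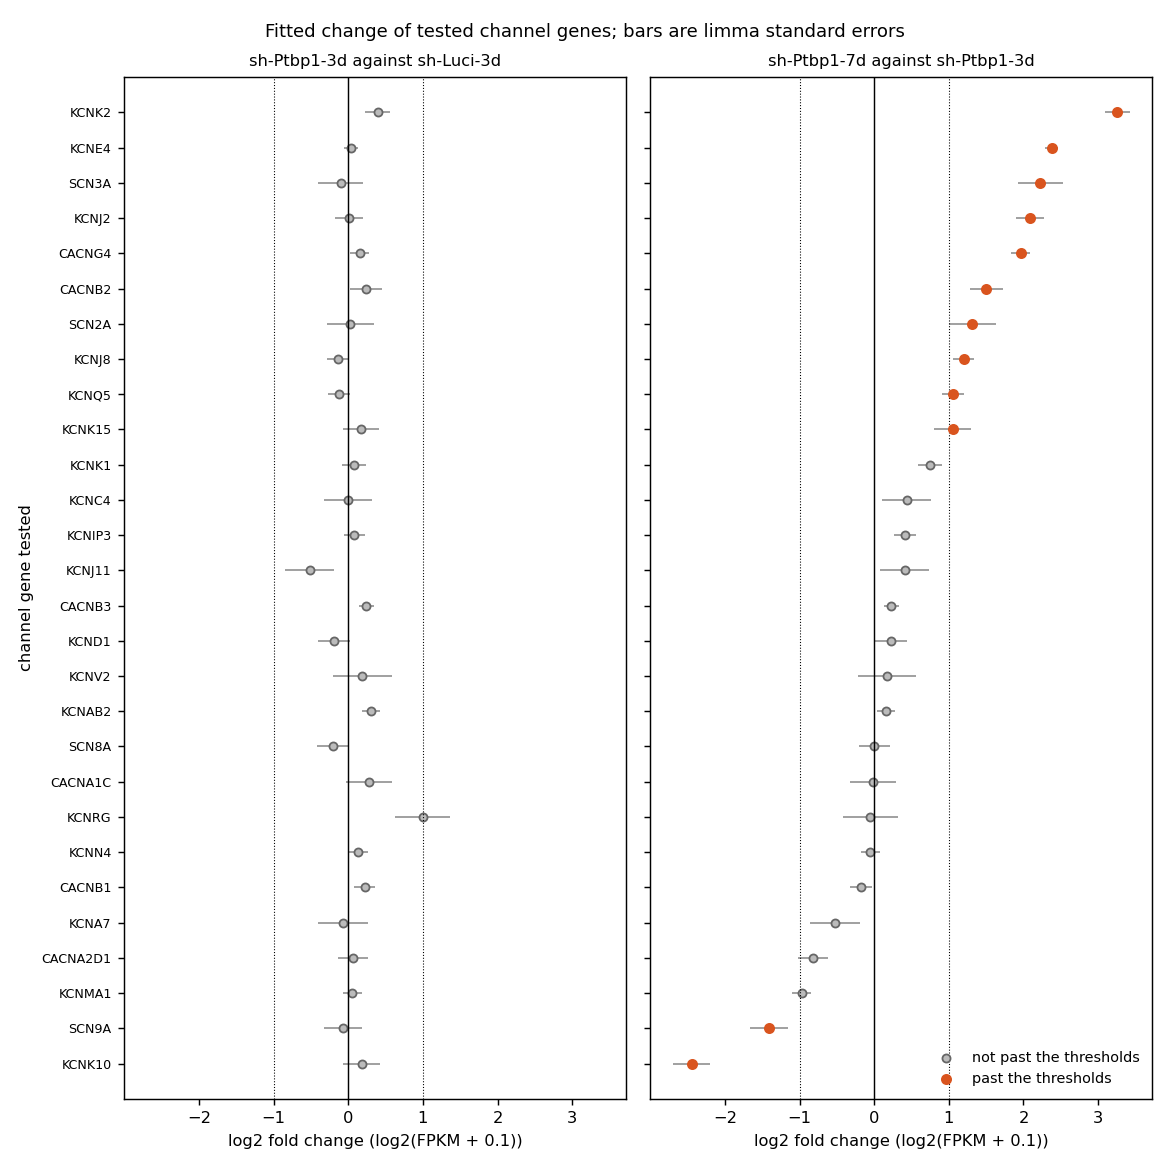
Fitted log2 fold changes of 28 of the 44 tested channel genes, those named in the text, ordered by the change from day 3 to day 7 of the knockdown; left, sh-Ptbp1-3d against sh-Luci-3d, right, sh-Ptbp1-7d against sh-Ptbp1-3d. Bars are limma standard errors, dotted lines mark a fold change of 2, and orange points passed the thresholds: 0 on the left and 12 on the right.

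The highest and the lowest fitted log2 fold change of the 44 genes both belonged to leak channels of the K2P family. KCNK2 encodes a mechanosensitive and lipid-sensitive leak channel of the TREK group, and KCNK10 encodes its close relative in the same group. KCNK2 was at 0.732, 0.493 and 0.484 FPKM in sh-Luci-3d, 0.812, 0.731 and 0.766 in sh-Ptbp1-3d and 7.76, 8.60 and 8.26 in sh-Ptbp1-7d. The day 7 libraries were far above all 6 of day 3, and the log2 fold change against sh-Ptbp1-3d was 3.26 ± 0.17 (SE, adjusted p by limma = 1.23e-07). KCNK10 was at 0.565, 0.636 and 0.491 FPKM in sh-Luci-3d, 0.713, 0.710 and 0.540 in sh-Ptbp1-3d and 0.0246, 0.0297 and 0.0614 in sh-Ptbp1-7d. It was close to the level of KCNK2 at day 3 and near 0 at day 7, with a log2 fold change of -2.44 ± 0.25 (SE, adjusted p by limma = 1.66e-05), which understates the change since the day 7 values are under the pseudocount of 0.1. Both passed without sh-Ptbp1-3d replicate 3, with log2 fold changes of 3.25 and -2.56.

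KCNK15, a relative of the acid-sensitive TASK channels, stood at 0.277, 0.422 and 0.417 FPKM in sh-Ptbp1-3d and 1.01, 0.694 and 0.924 in sh-Ptbp1-7d. The groups did not overlap, and the log2 fold change was 1.05 ± 0.24 (SE, adjusted p by limma = 0.00435). The call ended without sh-Ptbp1-3d replicate 1, sh-Ptbp1-7d replicate 1 or sh-Ptbp1-7d replicate 3. In these fits 10, 11 and 11 channel genes passed, beside 13.0%, 13.2% and 13.4% of all genes. Of the exon bases of KCNK15, 19.5% are shared with RIMS4 on the opposite strand, and since strand-specific counting is not stated in the sources used here, reads of the pair cannot be told apart there. KCNK1, a weakly conducting K2P channel, stood at 2.19, 1.49 and 1.95 FPKM in sh-Ptbp1-3d and 2.94, 3.30 and 3.31 in sh-Ptbp1-7d, which passed the adjusted p (0.00252 by limma) and not the fold threshold (log2 fold change 0.75). Within the family, the share of the summed K2P level taken by KCNK2 was 18.4% ± 0.662 (SD, n = 3) in sh-Ptbp1-3d and 62.9% ± 1.58 in sh-Ptbp1-7d. The share of KCNK10 was 15.7% ± 2.96 and 0.295% ± 0.151, and that of KCNK1 was 44.6% ± 4.94 and 24.4% ± 1.09. The leading K2P gene was thus KCNK1 at day 3 and KCNK2 at day 7, and the summed K2P level was 3.12 times higher at day 7.

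Both TREK genes have 2 starts in the RefSeq windows. The 250 bases upstream of each are given as the genes of this family with the largest changes in either direction, in the order upstream to downstream on the gene's own strand (GRCh38.p14). KCNK2 (chromosome 1, 215005775 to 215237093 in GENCODE v29, plus strand) is shown at chr1:215005292-215005541 and chr1:215082487-215082736, and KCNK10 (chromosome 14, 88180103 to 88326907, minus strand) at chr14:88326913-88327162 and chr14:88270912-88271161. Searched on both strands for the cAMP response element TGACGTCA, for its core TGACG, which the former contains, for a CCAAT box, for the GC box GGGCGG and for the TATA box TATAAA, none of the 4 windows held a match, so all letters are in lower case. The GC content was 42.8% and 63.6% for the KCNK2 windows and 48.0% and 56.8% for those of KCNK10. The expression values do not tell which start was used.
KCNK2 first start: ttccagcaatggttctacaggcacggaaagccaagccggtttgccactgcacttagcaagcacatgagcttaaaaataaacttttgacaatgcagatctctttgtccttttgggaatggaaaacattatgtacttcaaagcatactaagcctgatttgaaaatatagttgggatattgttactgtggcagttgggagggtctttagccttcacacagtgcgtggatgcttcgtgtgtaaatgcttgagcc
KCNK2 second start: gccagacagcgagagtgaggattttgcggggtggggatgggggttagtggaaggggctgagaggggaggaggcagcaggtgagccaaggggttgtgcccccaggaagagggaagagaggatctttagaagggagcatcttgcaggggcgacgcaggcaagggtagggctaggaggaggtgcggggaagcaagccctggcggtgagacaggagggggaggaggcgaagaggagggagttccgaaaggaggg
KCNK10 first start: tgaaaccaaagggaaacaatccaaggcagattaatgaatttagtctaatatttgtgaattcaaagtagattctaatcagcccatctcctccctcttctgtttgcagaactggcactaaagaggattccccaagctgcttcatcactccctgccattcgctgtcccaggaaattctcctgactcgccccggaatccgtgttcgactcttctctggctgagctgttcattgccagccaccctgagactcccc
KCNK10 second start: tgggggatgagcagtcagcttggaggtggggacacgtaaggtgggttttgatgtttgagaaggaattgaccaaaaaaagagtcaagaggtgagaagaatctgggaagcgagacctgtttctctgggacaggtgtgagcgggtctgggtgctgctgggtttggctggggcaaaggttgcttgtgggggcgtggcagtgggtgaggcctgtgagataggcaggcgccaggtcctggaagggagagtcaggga

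Of the inward rectifiers, KCNJ2 and KCNJ8 rose. KCNJ2 encodes Kir2.1, a strong rectifier that holds the resting potential of muscle and nerve cells, and KCNJ8 encodes Kir6.1, a pore subunit of ATP-sensitive channels. KCNJ2 was at 2.12, 1.59 and 1.16 FPKM in sh-Luci-3d, 1.68, 1.62 and 1.47 in sh-Ptbp1-3d and 7.95, 6.71 and 6.66 in sh-Ptbp1-7d. The 2 groups of day 3 overlapped and the day 7 libraries were above both, the log2 fold change to sh-Ptbp1-3d being 2.09 ± 0.19 (SE, adjusted p by limma = 7.56e-06). KCNJ8 was at 2.01, 1.92 and 2.26 FPKM in sh-Luci-3d, 1.67, 2.11 and 1.81 in sh-Ptbp1-3d and 3.88, 4.64 and 4.67 in sh-Ptbp1-7d. Its day 7 libraries were above all of day 3, by a log2 fold change of 1.20 ± 0.14 from sh-Ptbp1-3d (SE, adjusted p by limma = 4.4e-05), and it shares 10.8% of its exon bases with an annotated antisense gene. Of the summed Kir level, KCNJ8 took 42.4% ± 2.73 (SD, n = 3) and KCNJ2 36.3% ± 3.13 in sh-Ptbp1-3d, shares that differ by little more than their spread, and 34.0% ± 4.49 and 54.7% ± 3.85 in sh-Ptbp1-7d. The summed Kir level was 2.96 times higher at day 7. ABCC9, the sulfonylurea receptor subunit that pairs with KCNJ8, was below 0.05 FPKM in all 9 libraries.

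Of the 2 genes, KCNJ2 alone has a window with matches and 0 untranslated bases listed. KCNJ2 (chromosome 17, 70168673 to 70180048, plus strand) starts before this window in GENCODE v29, so the window is upstream of the RefSeq start only. Its 250 bases upstream of the RefSeq start, chr17:70169282-70169531 (GRCh38.p14, plus strand), are shown with a CCAAT box on the opposite strand, 78 bases before the start, and a GC box, 59 bases before it, in capitals. CCAAT was found in 32.0% of all 35116 windows of 250 upstream bases and in 30.7% of the 150 windows of channel genes, and GGGCGG in 42.6% and 49.3%. TGACG was found in 21.2% and 15.3%, TGACGTCA in 1.65% and 0.667%, and TATAAA in 10.7% and 7.33%. RefSeq windows were found for 98 of the 137 genes and 8 of the 13 that passed a threshold.
KCNJ2: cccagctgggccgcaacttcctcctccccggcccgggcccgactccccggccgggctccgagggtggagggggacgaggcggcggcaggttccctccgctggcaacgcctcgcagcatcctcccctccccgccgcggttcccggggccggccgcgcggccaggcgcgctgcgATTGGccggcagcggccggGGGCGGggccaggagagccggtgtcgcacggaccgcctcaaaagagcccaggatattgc

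Among voltage-gated potassium channels, the Kv7 subunit KCNQ5 was the only pore gene with a call at day 7 under the main settings. It was at 11.4, 11.3 and 7.79 FPKM in sh-Luci-3d, 9.81, 9.58 and 8.17 in sh-Ptbp1-3d and 20.5, 19.9 and 17.4 in sh-Ptbp1-7d. The day 7 libraries were all above those of day 3, with 1.06 ± 0.15 as the log2 fold change from sh-Ptbp1-3d (SE, adjusted p by limma = 0.00016). Without sh-Ptbp1-3d replicate 3 the log2 fold change was 0.98 (adjusted p by limma = 0.00114), under the fold threshold. KCNQ5 made up at least 94.0% of the summed Kv7 level in every library. Of the Kv1 to Kv4 pore subunits, 0 of the 4 tested passed, which included KCNA7, KCNC4 and KCND1, and of the EAG, ERG and ELK channels 0 of 2 passed.

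Of the calcium-activated potassium channels, KCNN4 and KCNMA1 were tested. KCNN4 lay between 20.6 and 29.2 FPKM over all 9 libraries with the groups overlapping, and its log2 fold change at day 7 against sh-Ptbp1-3d was -0.05 ± 0.13 (SE, adjusted p by limma = 0.745), a value that changed sign with TPM scaling (0.05) or without sh-Ptbp1-3d replicate 1 (0.02). KCNMA1 was at 9.19, 10.2 and 12.2 FPKM in sh-Luci-3d, 10.5, 11.7 and 10.4 in sh-Ptbp1-3d and 5.83, 5.88 and 4.78 in sh-Ptbp1-7d. All 3 libraries of day 7 were below the 6 of day 3. The log2 fold change was -0.97 ± 0.12 (SE, adjusted p by limma = 9.08e-05), which passed the adjusted p and narrowly missed the fold threshold, and -1.005 without sh-Ptbp1-3d replicate 3, where the gene passed both. It also passed both without sh-Ptbp1-7d replicate 1 or 2.

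Of the auxiliary subunits and regulators of potassium channels, 10 of 18 were tested and KCNE4 alone passed. It was at 5.12, 5.52 and 5.82 FPKM in sh-Luci-3d, 6.05, 5.34 and 5.55 in sh-Ptbp1-3d and 30.9, 29.7 and 28.6 in sh-Ptbp1-7d. The replicates lay close together within each group, and the log2 fold change of 2.38 ± 0.09 against sh-Ptbp1-3d (SE) had the lowest adjusted p of all channel genes (1.79e-08 by limma). KCNE4 took 21.0% ± 0.847 (SD, n = 3) of the summed level of this group in sh-Ptbp1-3d and 52.5% ± 0.0505 in sh-Ptbp1-7d. KCNIP3, a calcium-binding subunit of Kv4 channels also known as the transcriptional repressor DREAM, stood at 7.53, 7.50 and 6.62 FPKM in sh-Ptbp1-3d and 10.1, 10.2 and 8.68 in sh-Ptbp1-7d (log2 fold change 0.41, adjusted p by limma = 0.035). KCNAB2, a cytoplasmic Kv beta subunit, was at 7.53, 6.87 and 7.18 FPKM and 8.75, 8.30 and 7.10 FPKM (log2 fold change 0.16, adjusted p by limma = 0.311).

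**Figure D3:**
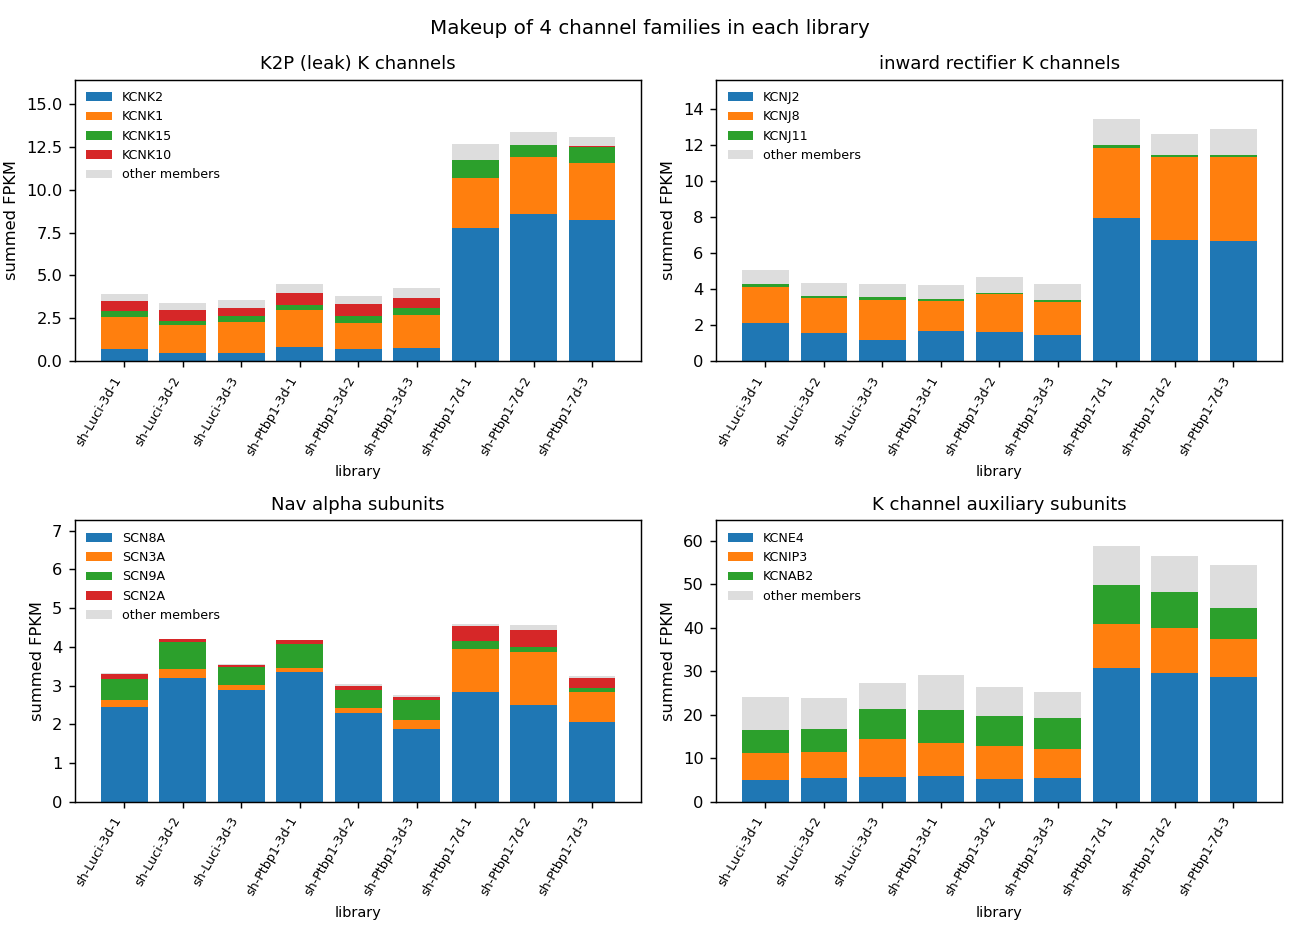
Summed FPKM of 4 channel families in each of the 9 libraries, with leading genes of each family as coloured segments and the remaining genes in light grey; each bar is a library and starts at 0. KCNK2 makes up 62.9% of the K2P level and KCNE4 52.5% of the auxiliary level at day 7, while SCN3A widens within a summed Nav alpha level that overlaps between the days.

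Of the 4 sodium channel alpha subunits tested, 2 rose and 1 fell. SCN2A and SCN3A encode neuronal Nav1.2 and Nav1.3. They overlap in part on chromosome 2 (165194993 to 165392310 on the plus strand and 165087522 to 165204067 on the minus strand). SCN9A encodes Nav1.7, the channel of pain-sensing neurons, on the same chromosome (166195185 to 166376001), and SCN8A encodes Nav1.6. SCN3A was at 0.171, 0.214 and 0.124 FPKM in sh-Luci-3d, 0.0992, 0.138 and 0.225 in sh-Ptbp1-3d and 1.12, 1.38 and 0.774 in sh-Ptbp1-7d. Every day 7 library was above the 6 of day 3, the log2 fold change to sh-Ptbp1-3d being 2.23 ± 0.30 (SE, adjusted p by limma = 0.000124). SCN9A was at 0.544, 0.714 and 0.467 FPKM in sh-Luci-3d, 0.631, 0.474 and 0.517 in sh-Ptbp1-3d and 0.199, 0.121 and 0.110 in sh-Ptbp1-7d. It was lower in each day 7 library than in any of day 3, with a log2 fold change of -1.41 ± 0.26 (SE, adjusted p by limma = 0.00102). SCN8A, the most abundant, lay between 1.89 and 3.36 FPKM over the 9 libraries, and its groups overlapped (log2 fold change 0.00 ± 0.21 (SE), adjusted p by limma = 0.995).

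SCN2A was lower than these, at 0.0795, 0.0864 and 0.0908 FPKM in sh-Ptbp1-3d and 0.391, 0.455 and 0.259 in sh-Ptbp1-7d. The groups did not overlap, and the log2 fold change was 1.31 ± 0.31 (SE, adjusted p by limma = 0.00539). SCN2A reached the 0.1 FPKM limit for testing through day 7 alone, with means of 0.0852 in sh-Luci-3d, 0.0856 in sh-Ptbp1-3d and 0.368 in sh-Ptbp1-7d. At its day 3 level it would not have been tested. Its call ended when any 1 sh-Ptbp1-3d library, or sh-Ptbp1-7d replicate 1 or 2, was left out. In these fits 10 to 12 channel genes passed, beside 13.0% to 13.6% of all genes. Without sh-Ptbp1-3d replicate 3 the adjusted p of SCN2A by limma was 0.0131. The share of the summed Nav alpha level taken by SCN3A was 5.02% ± 2.91 (SD, n = 3) in sh-Ptbp1-3d and 26.1% ± 3.55 in sh-Ptbp1-7d, and that of SCN9A was 16.5% ± 1.98 and 3.45% ± 0.842. In sh-Ptbp1-3d without replicate 3, these shares averaged 3.46% for SCN3A and 15.4% for SCN9A. The summed level itself was 4.18, 3.03 and 2.76 FPKM in sh-Ptbp1-3d and 4.60, 4.56 and 3.26 in sh-Ptbp1-7d, which overlap. Annotated antisense transcripts on the opposite strand share 9.91% of the exon bases of SCN3A and 8.17% of those of SCN9A. The transcript over SCN3A also shares 1.01% of the exon bases of SCN2A, on the same strand as SCN2A.

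Of the calcium channel genes at day 3 of the knockdown, the 4 beta subunits summed to 20.3 FPKM ± 1.81 and the 10 alpha1 pore subunits to 0.797 FPKM ± 0.149 (SD, n = 3). CACNA1C, the Cav1.2 pore, was the only alpha1 subunit tested, and it stood at 0.922, 0.667 and 0.404 FPKM in sh-Ptbp1-3d and 0.703, 0.840 and 0.403 in sh-Ptbp1-7d, with the groups overlapping. CACNG4, a transmembrane regulator of AMPA receptors in the gamma family, was at 1.64, 1.39 and 1.69 FPKM in sh-Luci-3d, 1.57, 1.73 and 1.98 in sh-Ptbp1-3d and 7.41, 7.10 and 6.87 in sh-Ptbp1-7d. The day 7 libraries were well above those of both day 3 groups, and the log2 fold change was 1.96 ± 0.13 (SE, adjusted p by limma = 7.91e-07). CACNB2, a beta subunit that brings alpha1 pores to the membrane, stood at 0.328, 0.347 and 0.324 FPKM in sh-Ptbp1-3d and 1.02, 1.07 and 1.31 in sh-Ptbp1-7d, a log2 fold change of 1.50 ± 0.22 (SE, adjusted p by limma = 0.000217). CACNG4 shares 6.78% of its exon bases with an annotated antisense gene, and CACNB2 shares 8.29% and 4.76% with a pair of opposite-strand genes. CACNB2 remained a minor beta subunit, with 4.84% ± 0.541 (SD, n = 3) of the summed Cav beta level at day 7 against 80.5% ± 1.80 for CACNB3.

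CACNB3 stood at 15.4, 17.7 and 15.0 FPKM in sh-Ptbp1-3d and 18.3, 18.5 and 19.6 in sh-Ptbp1-7d, a log2 fold change of 0.23 ± 0.11 (SE, adjusted p by limma = 0.0911). CACNB1, the beta subunit known from skeletal muscle, lay between 2.42 and 3.48 FPKM over the 9 libraries with overlapping groups. CACNA2D1, an extracellular subunit that binds gabapentin, stood at 2.84, 3.25 and 3.05 FPKM in sh-Ptbp1-3d and 1.86, 1.77 and 1.45 in sh-Ptbp1-7d. Its day 7 libraries were lower than these, and it passed the adjusted p (0.00617 by limma) and not the fold threshold (log2 fold change -0.82). With KCNK1 and KCNMA1, it brought the tested channel genes with an adjusted p below 0.01 at any fold to 15, of which 11 were higher and 4 lower at day 7 (25.0% and 9.09% of the 44, against 20.3% and 15.5% of all genes). Without sh-Ptbp1-3d replicate 3 there were 13 such genes, 10 higher and 3 lower (22.7% and 6.82%). That count was made for the channel genes only, so the 20.3% and 15.5% of all genes do not belong beside it.

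Against sh-Luci-3d, which shares its sh-Ptbp1-7d libraries with the comparison above, 12 of the 44 channel genes passed the same thresholds, 10 higher (22.7%, against 8.93% of all genes) and 2 lower (4.55%, against 5.68% of all genes). Of these 12, 11 also passed against sh-Ptbp1-3d. Quantile normalization gave 6 higher and 4 lower in place of 10 and 2, and 14.2% of all genes passed in either direction. The largest changes were those of KCNK2 (log2 fold change 3.65 ± 0.17), KCNE4 (2.42 ± 0.09), SCN3A (2.12 ± 0.30), CACNG4 (2.11 ± 0.13) and KCNJ2 (2.10 ± 0.19), and KCNK10 (-2.26 ± 0.25) and SCN9A (-1.47 ± 0.26) fell (SE). The median over the 44 genes was 0.47, against 0.10 over all genes, and the libraries did not overlap for 30 of the 44 (68.2%), against 55.9% of all genes. KCNQ5 had a log2 fold change of 0.93, under the fold threshold.

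The call of SCN2A in this comparison ended without sh-Luci-3d replicate 2 or 3 or sh-Ptbp1-7d replicate 1 or 2. In these fits 10 to 12 channel genes passed, beside 13.4% to 14.5% of all genes.

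A further 8 channel genes were at their highest in sh-Ptbp1-3d replicate 3, with at least 0.1 FPKM there and at least 3 times the higher of the other 2 sh-Ptbp1-3d libraries. All 8 were under the limit for testing. CACNG7 (a gamma subunit of neurons) was at 0.727 FPKM in that library, KCNG1 (a silent Kv modifier) at 0.409, KCNQ3 (a Kv7 subunit) at 0.120, SCN3B (a Nav beta subunit) at 0.271, KCNJ4 (Kir2.3) at 0.231, KCNF1 (a silent Kv modifier) at 0.187 and KCNN1 (a small-conductance calcium-activated channel) at 0.127 FPKM. In sh-Ptbp1-3d replicates 1 and 2, 6 of them were listed at 0, SCN3B was at 0 and 0.0242 FPKM and KCNN1 at 0 and 0.00822 FPKM. At day 7, KCNJ4 was at 0.105, 0.157 and 0.0616 FPKM and KCNF1 at 0.110, 0.0406 and 0.0218 FPKM, while KCNG1 and CACNG7 were listed at 0 in all 3 libraries.

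The 8 genes are 5.84% of the channel genes, and 503 entries of the whole table (2.26%) met the same criterion. The corresponding number for the other 8 libraries, each set against the other 2 of its group, was between 0 and 3 channel genes. A further count showed 9 channel genes above 0 in this library and at 0 in the other 8, against 0 to 2 in each of the others. Of all entries, 364 (1.63%) were above 0 in this library alone, against 71 to 121 for each other library, and the 9 are 6.57% of the channel genes. Beside them, 6 of 15 pan-neuronal and 4 of 11 forebrain neuron markers met the criterion, with DCX at 2.14 and INA at 1.84 FPKM, and so did 2 of 6 muscle, 0 of 8 astroglial, 0 of 7 oligodendrocyte lineage and 0 of 6 blood and immune markers. The summed level of the pan-neuronal list was 583 FPKM in this library, 562 to 569 in the other 2 of its group, 490 to 527 in sh-Luci-3d and 257 to 265 in sh-Ptbp1-7d, and that of the forebrain list was 29.5, 19.4 to 19.9, 17.5 to 19.3 and 23.2 to 23.7 FPKM. The pan-neuronal sum was mostly TUBB3, at 314 FPKM in this library and 314 and 322 in its group. The part of the cells or RNA behind these markers in the channel values was not tested. KCNK2, KCNE4, KCNJ2 and CACNG4, which rose at day 7, were at 0.766, 5.55, 1.47 and 1.98 FPKM in this library, and their calls held without it.

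**Figure D4:**
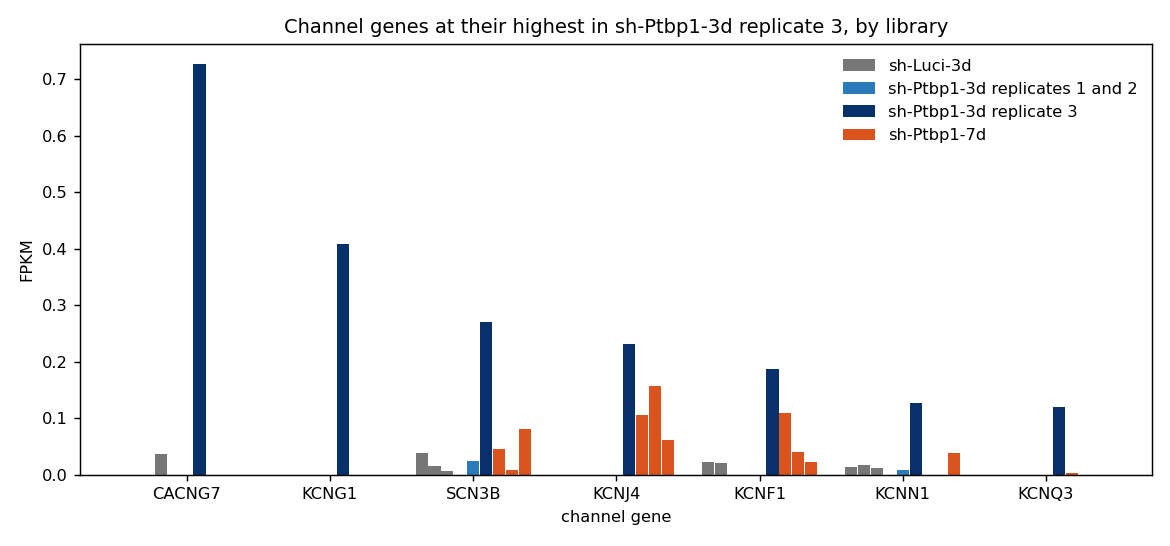
FPKM of 7 of the 8 channel genes that were high in sh-Ptbp1-3d replicate 3; each bar is a library, with that library in dark blue, the other 2 of its group in light blue, sh-Luci-3d in grey and sh-Ptbp1-7d in orange, on an axis that starts at 0. The dark bar is the tallest for each gene, from 0.120 FPKM for KCNQ3 to 0.727 FPKM for CACNG7.

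Other genes of electrical excitability, 48 genes that include cation channels, channel partners, pumps and exchangers outside the families above, were counted beside them. Of the 26 that were tested, 0 passed at day 3 by limma (2 at an unadjusted p below 0.05) and 7 passed at day 7 against sh-Ptbp1-3d, 4 higher (against 8.31% of all genes) and 3 lower (against 5.9% of all genes), with a median log2 fold change of -0.09. Without sh-Ptbp1-3d replicate 3, 5 of these 7 passed, 3 higher (against 7.69% of all genes) and 2 lower (against 5.92%), with a median of -0.16. SLC8A1, the sodium-calcium exchanger of heart and neurons, stood at 0.149, 0.119 and 0.457 FPKM in sh-Ptbp1-3d and 3.45, 3.30 and 2.40 in sh-Ptbp1-7d, a log2 fold change of 3.32, and of 3.74 without sh-Ptbp1-3d replicate 3. The other 3 that rose were ANK3, the ankyrin that clusters Nav channels at the axon initial segment (1.56), ATP1B1, a subunit of the sodium pump (1.36), and FAM155A, a subunit of the NALCN sodium leak channel (1.25), all as log2 fold changes. NALCN itself fell (-1.05), as did STAC, which binds Cav channels (-1.99), and the plasma membrane calcium pump ATP2B4 (-1.73). The calls of ANK3 (log2 fold change 1.61, adjusted p by limma = 0.0102) and NALCN (-1.14, adjusted p by limma = 0.0127) ended without that library. REST, a repressor of neuronal genes that include channels, stood at 6.43, 6.34 and 6.31 FPKM in sh-Ptbp1-3d and 9.99, 9.83 and 7.67 in sh-Ptbp1-7d (log2 fold change 0.51, adjusted p by limma = 0.00763).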

How the data were processed

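RNA-seq of 9 U251 libraries was analysed from the deposited table of FPKM values. Per the labels, the authors aligned reads with HISAT2 to GRCh38; the program that assembled loci (2363 of the 22295 entries) and computed FPKM, and whether it used strand, are not given in the sources used here. FPKM carry no counts, so the depth behind each value is unknown and no count model was used. Genes (15551) whose mean reached 0.1 FPKM were tested with limma 3.58.1 in R 4.3.3 on log2(FPKM + 0.1) with an intensity trend, all 9 libraries in 1 fit and two-sided Benjamini-Hochberg adjusted p. The thresholds were a fold change above 2 with an adjusted p below 0.05 (day 3) or 0.01 (comparisons with day 7, taken over for sh-Luci-3d). On simulated data 197 of 200 changed genes were recovered among 15551. This recovery is not split here by expression level or by size of change. It is therefore not read as a rate for low channel genes or for changes near the fold threshold. Fold changes on this scale understate those of low genes. Members, families and gene lists were chosen with earlier results of these data known. Named were genes past a threshold, the 12 highest by mean and those high in sh-Ptbp1-3d replicate 3. Positions and exon overlaps are from GENCODE v29, promoter windows from RefSeq. Alternatives were other pseudocounts, filters, scalings and fits, and leaving out each library. Some genes are counted and not reported by name here.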

Additional observations from a re-analysis of the deposited data

How the results depend on the processing

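The 0 calls at day 3 held under all 19 alternatives tried (limma). With a pseudocount of 1 in place of 0.1, 4 channel genes passed in each comparison with sh-Ptbp1-7d in place of 12 and 12: KCNK2, KCNE4, KCNJ2 and CACNG4, which passed under all 19 alternatives. With that pseudocount, 8.07% and 8.16% of all genes passed. Requiring a mean of 1 FPKM left 20 channel genes to test, of which 6 passed against sh-Ptbp1-3d and 5 against sh-Luci-3d (13.5% and 13.9% of the 11993 genes tested did). Leaving out 1 library at a time gave 10 to 12 and 10 to 13 calls, beside 13.0% to 14.3% and 13.4% to 14.7% of all genes. The remaining alternatives gave 11 to 12 and 10 to 14, beside 11.3% to 15.2% and 11.7% to 15.4% of all genes. Without a filter, 14 of 119 channel genes tested passed against sh-Luci-3d, CACNA2D3 (log2 fold change -1.32) being among those added. Against sh-Ptbp1-3d, 12 of the 119 passed. Of the 19640 genes then tested, 11.7% and 11.3% passed in these comparisons. Of the 119 channel genes, 75 were under the filter, where a pseudocount of 0.1 makes a fold change of 2 hard to reach. The closeness of these shares is therefore not read as a result about the channel genes. With the replicate block, 0, 11 and 12 channel genes passed at day 3, against sh-Ptbp1-3d and against sh-Luci-3d. Of all genes, 0%, 13.8% and 14.3% passed. SCN2A was lost against sh-Ptbp1-3d. Same-numbered libraries did not deviate together (correlations of -0.032 to 0.051), nor did libraries with different numbers (-0.073 to 0.061). The labels do not say whether the numbers pair the samples. Of 649 alternative values of 35 single-gene changes, 590 kept direction and side of the threshold, 45 fell short of it, 12 passed it and 2 changed sign, both of KCNN4, at -0.05 under the main settings (0.0463 with TPM, and -0.101 to 0.0213 with 1 library left out, the latter without sh-Ptbp1-3d replicate 1). A pseudocount of 1 shrank the log2 fold change of SCN9A from -1.41 to -0.43 and that of KCNK10 from -2.44 to -0.67. Depth could not be assessed, since FPKM carry no counts, so no counting error is given for the low genes.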
